A study of Rattus norvegicus with 12 samples.

Results

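Heat shock proteins and endoplasmic reticulum (ER) chaperones fold newly made proteins and keep damaged ones from clumping. The 68 genes described here were all genes on the array with a symbol starting with Hsp (other than Hspg2), Dnaj or Pdia, plus Calr, Canx, P4hb, Xbp1, Atf4, Hyou1, Sdf2l1, Herpud1, Hsf1 and Bag3, out of 10411 genes with a probe set of their own. Each gene was represented by its brightest probe set, the group of short probes that reads 1 transcript, and 61 of the 68 were bright enough to be tested. The rule used no difference between groups. The other 7 (Hspa12b, Hspa1l, Dnajb13, Dnajc21, Pdia2, Hspb2 and Hspb3) lay among the dimmest 30% of probe sets and were not tested. Atf6 had no probe set of its own, and the probe sets of Hspa8, Hsp90aa1 and Hspa1b also name a second gene, so these 4 genes are not among the 68.

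RNA was measured in preadipocytes, the precursors of fat cells, which were taken from the perirenal fat around the kidney and the epididymal fat beside the testis of male Brown Norway rats and grown in culture to confluence. The rats were barrier reared and specific pathogen free, 3 were young (3 months) and 3 were old (30 months), and each gave 1 array per depot. Depot and age thus made 4 groups of 3 arrays, with the same 3 rats in both depots at an age. The labels name no treatment or genetic change, and all cells had been plated and replated in serum before RNA was taken, so the arrays show cultured cells and not fat tissue.

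In the ER, Hspa5 (BiP) and Hsp90b1 (Grp94) hold unfolded chains, the Dnaj proteins (J proteins) stimulate the HSP70 partner that binds them, disulfide isomerases of the Pdia family and P4hb form and reshuffle disulfide bonds, and the lectins Calr and Canx hold glycoproteins. When unfolded protein builds up, the transcription factors Xbp1, Atf6 and Atf4 raise such genes in what is called the unfolded protein response. In the cytosol, Hsf1 does the same for heat shock proteins. Preadipocytes secrete collagen and other matrix proteins that need ER folding.

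Some, not all, of the factors named above are known to read these short promoter sequences: the ER stress elements ERSE (CCAAT, 9 bases of any kind, CCACG) and ERSE-II (ATTGG, 1 base, CCACG), and the heat shock element (GAA, TTC and GAA, or TTC, GAA and TTC, with 2 bases between each triplet). These letters were searched for on both strands of RefSeq promoter windows of rat assembly GRCr8, from 250 bases before to 50 bases after the start, which were at hand for 55 of the 68 genes. ERSE was found for 6 of these 55 genes (10.9%) and in 0.0657% of all 33469 windows. ERSE-II was found for 3 genes (5.45%) and in 0.0508% of windows, and the heat shock element for 4 (7.27%) and in 0.798%. The shares count genes on 1 side and windows on the other, and their difference was not tested. A match is a description of the letters and not a sign that a factor bound there. The stretches below are those of the ER genes in which ERSE or ERSE-II was found. They are written 5′ to 3′ along the gene with the fixed letters of ERSE, or the whole of ERSE-II, in capitals.
Hspa5, chr3:38452958-38453006, plus strand: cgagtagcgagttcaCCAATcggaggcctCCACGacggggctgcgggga
Hsp90b1, chr7:23012332-23012484, minus strand: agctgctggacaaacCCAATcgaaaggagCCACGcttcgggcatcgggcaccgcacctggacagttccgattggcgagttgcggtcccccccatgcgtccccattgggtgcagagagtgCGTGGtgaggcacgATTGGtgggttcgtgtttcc
Dnajc3, chr15:102432519-102432567, plus strand: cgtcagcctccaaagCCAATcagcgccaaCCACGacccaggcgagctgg
Calr, chr19:40213120-40213168, plus strand: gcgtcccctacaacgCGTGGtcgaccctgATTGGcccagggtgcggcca
Canx, chr10:35158054-35158102, minus strand: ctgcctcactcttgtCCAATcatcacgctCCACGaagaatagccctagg
Xbp1, chr14:84604543-84604591, plus strand: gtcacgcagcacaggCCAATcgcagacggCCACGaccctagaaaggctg
Hyou1, chr8:53602679-53602819, plus strand: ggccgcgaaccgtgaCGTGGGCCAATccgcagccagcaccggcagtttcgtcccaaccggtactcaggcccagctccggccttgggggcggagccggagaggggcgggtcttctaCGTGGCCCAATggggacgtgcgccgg
Herpud1, chr19:10614806-10614846, minus strand: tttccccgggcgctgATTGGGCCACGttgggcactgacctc
Dnajb11, chr11:91672800-91672825, minus strand: atgtcccaggcggcgATTGGCCCACG
The site nearest the start began 10 bases upstream in Dnajb11, 43 in Hspa5, 65 in Xbp1 and 72 in Hsp90b1, while the Calr and Canx sites began 232 and 230 bases upstream. Calr, the nearer Hsp90b1 site and both Hyou1 sites carry the element on the opposite strand. Sdf2l1, the gene with the smallest p between depots, holds none of the 3 motifs in its window, and 120 bases of it are shown for comparison.
Sdf2l1, chr11:97376758-97376877, plus strand: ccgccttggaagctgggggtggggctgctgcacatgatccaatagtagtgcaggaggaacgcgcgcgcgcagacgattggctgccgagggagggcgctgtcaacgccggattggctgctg
Among the genes of the cytosol and mitochondrion, the heat shock element stood in the windows of Hsph1, Dnaja1, Hspd1 and Hspe1. Hspd1 and Hspe1 are divergent neighbours whose windows share 211 bases, so they hold the same copies, which overlap each other. In these stretches the capitals mark the heat shock element.
Hspe1, chr9:64084247-64084294, plus strand: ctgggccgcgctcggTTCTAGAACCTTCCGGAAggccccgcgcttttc
Hsph1, chr12:10427317-10427359, plus strand: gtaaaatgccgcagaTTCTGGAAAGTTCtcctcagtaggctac

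Several control probe sets separated the depots completely, and this touches every depot comparison that follows. Beta-actin is read at its 3' and 5' ends, and a high 3'/5' ratio means that labelled copies often stop short of the 5' end. Perirenal arrays had ratios of 0.902 to 1.11 (6 arrays), epididymal arrays ratios of 5.25 to 55.0 (6 arrays). For GAPDH it was 1.06 to 1.17 and 1.85 to 6.94. The bacterial control transcript dap read 0.4 to 2.3 in perirenal and 492.6 to 765.7 in epididymal samples, and the median over the whole array was 194.6 to 201.9 and 152.9 to 176.0. The depot and these controls cannot be told apart in this design. Of the 9 preadipocyte and fibroblast markers on the array (such as Pdgfra, Thy1 and Col1a1), none lay below the level of the signal filter in perirenal cells and 1, Dlk1, did in epididymal cells. Their signals summed to 74180 to 88670 per array in perirenal and 115700 to 130400 in epididymal cells. The summed signal of the 6 macrophage markers was 1200 to 2826 and 470.6 to 1026, with Itgam and Ptprc below the filter level in both. Of the 4 macrophage markers tested 3 were higher in perirenal cells, where the labels say that such markers were alike across depots and ages. That of the 5 mesothelial markers was 800.2 to 1019 and 1562 to 2842. All 4 endothelial markers lay below the filter level, and the 4 markers of mature fat cells summed to 113.1 to 836.6 and 43.7 to 171.6. The part of these cell types in the results was not tested, and in such bulk samples fewer cells of a type and less RNA per cell cannot be told apart.

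Between depots, the 5 tested disulfide isomerases and the ER chaperones Hspa5 and Hsp90b1 were lower in perirenal cells, while Sdf2l1 was higher. After quantile normalization P4hb, Pdia5 and Pdia6 no longer passed, and Pdia6 was no longer lower. J proteins and small heat shock proteins went both ways. Hspb1 and J proteins such as Dnajb4 and Dnaja1 were lower, while Hspb7, Hspb8 and J proteins such as Dnajc12 and Dnajc15 were higher. Of the 61 genes tested, 25 (41.0%) passed an adjusted p of 0.05 (limma, Benjamini-Hochberg over 11106 probe sets, n = 6 arrays per depot), averaged over both ages, where 51.7% of all tested probe sets did. The difference between these shares was not tested. Of the 61, 9 (14.8%) passed as higher in perirenal cells, against 30.2% of all probe sets, and 16 (26.2%) as lower, against 21.4%. At an unadjusted p under 0.05 there were 31 genes (50.8%), against 57.9%. All 6 arrays of a depot lay on 1 side of the other depot for 16 genes (26.2%), against 27.7%. The median difference, perirenal minus epididymal on the log2 scale, was -0.12 over the 61 genes and 0.08 over all tested probe sets.

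**Figure D1:**
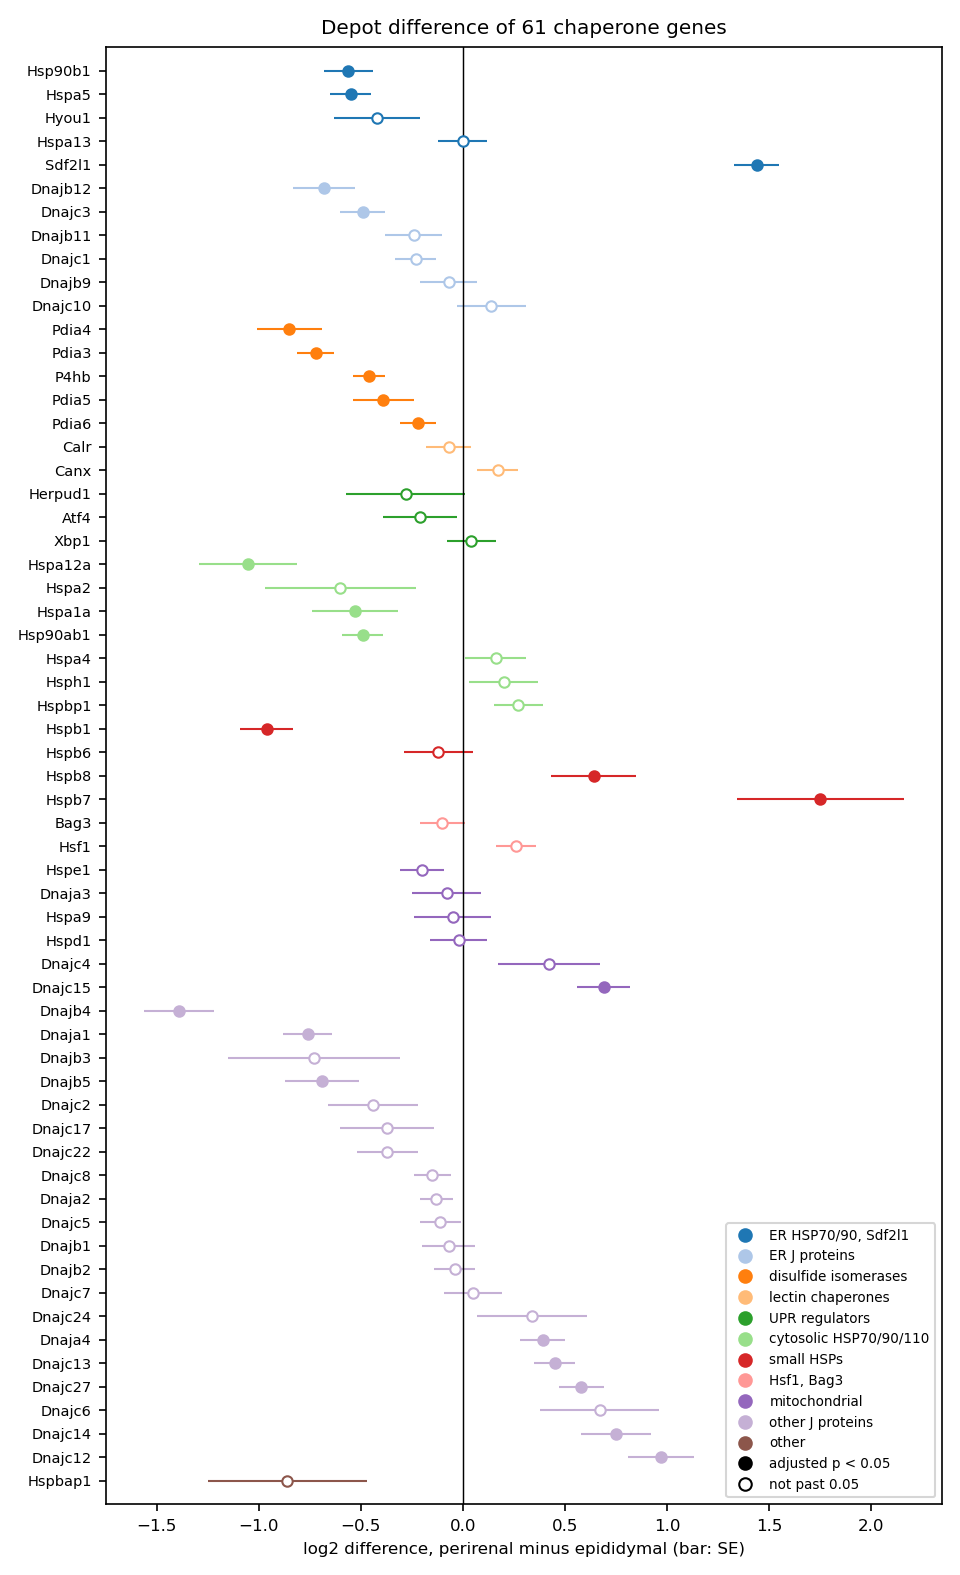
Depot difference of the 61 tested genes, perirenal minus epididymal, on the log2 scale, averaged over both ages. Points are limma estimates with bars of 1 standard error, colours give the role, and filled points passed an adjusted p of 0.05. All 5 disulfide isomerases lie left of 0, between -0.85 and -0.22 (after quantile normalization Pdia6 lay at 0.05), and Sdf2l1 lies at 1.44.

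All 5 tested disulfide isomerases were lower in perirenal cells, with a median difference of -0.46, although after quantile normalization between arrays Pdia6 came to 0.05 and P4hb and Pdia5 no longer passed. Pdia3 (ERp57), which works with calnexin and calreticulin on glycoproteins, had signals of 3929, 4202 and 5090 on the young and 4358, 4487 and 4500 on the old perirenal arrays. The epididymal arrays read 6468, 8020 and 8085 (young) and 7701, 7122 and 6519 (old). No perirenal array reached any epididymal array, and the difference was -0.72 ± 0.09 (SE; 1.65-fold lower, adjusted p = 2.98e-05). P4hb, the classical protein disulfide isomerase and a subunit of collagen prolyl 4-hydroxylase, read 8162 to 9275 (median 8856) in perirenal and 10604 to 14871 (median 12140) in epididymal cells. Its groups did not overlap either, with a difference of -0.46 ± 0.08 (1.38-fold, adjusted p = 0.000558). After quantile normalization P4hb came to -0.11 (adjusted p = 0.262). Pdia4 (ERp72) read 1644 to 2966 (median 1990.0) and 2707 to 5142 (median 3754). The young perirenal array 3 lay above the lowest epididymal array, and the difference was -0.85 ± 0.16 (1.80-fold, adjusted p = 0.000908). Pdia5 (-0.39 ± 0.15, adjusted p = 0.0461) and Pdia6 (-0.22 ± 0.09, adjusted p = 0.0483) passed narrowly and overlapped. With 1 rat left out at a time, Pdia6 failed to pass in 5 of the 6 fits and Pdia5 in 4, and after quantile normalization Pdia5 was -0.34 (adjusted p = 0.0728) and Pdia6 0.05 (adjusted p = 0.644).

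Of the 5 ER heat shock proteins and their partner Sdf2l1, 2 were lower, 1 was higher and 2 did not pass. Hspa5, the BiP chaperone and the main ER member of the HSP70 family, read 4693, 5606 and 5038 on the young and 5255, 5335 and 5743 on the old perirenal arrays. On the epididymal arrays it read 5643, 8626 and 7676 (young) and 7295, 8712 and 8841 (old). Only the young epididymal array 1 lay within the perirenal range. The difference was -0.55 ± 0.10 (1.46-fold lower, adjusted p = 0.000773). Hsp90b1, the ER member of the HSP90 family, read 4668 to 5727 (median 4995) in perirenal and 5839 to 8928 (median 8247) in epididymal cells. The ranges did not meet, and the difference was -0.56 ± 0.12 (1.47-fold, adjusted p = 0.00167).

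Sdf2l1, an ER protein that works with BiP and the J protein Dnajb11, went the other way. Its signals were 1442, 1826 and 1472 on the young and 1700, 1725 and 2073 on the old perirenal arrays. They were 532, 551 and 684 (young) and 678, 723 and 604 (old) on the epididymal arrays. Every perirenal array lay above every epididymal one. The difference of 1.44 ± 0.11 (95% interval 1.21 to 1.67; 2.71-fold higher) had the smallest adjusted p of the 61 genes, 8.34e-07. Sdf2l1 has 1 probe set on the array, so no second reading was at hand. Hyou1, an ER chaperone of the HSP110 family and an exchange factor for BiP, read 378 to 692 (median 672) in perirenal and 552 to 1108 (median 714) in epididymal cells. These overlapped, and the difference of -0.42 ± 0.21 (95% interval -0.87 to 0.02) did not pass (adjusted p = 0.103), although with the rat as a fixed block the adjusted p was 0.0346. The second probe set of Hyou1 was higher in perirenal cells (2.22, adjusted p = 3.11e-06). Hspa13 differed by -0.00 (interval -0.27 to 0.27).

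The plot of ER chaperone signals shows these genes array by array. In Hspa5, P4hb, Pdia3 and Dnajc3 the epididymal points sit above the perirenal ones at both ages, in Sdf2l1 they sit below, and in Calr the groups interleave.

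**Figure D2:**
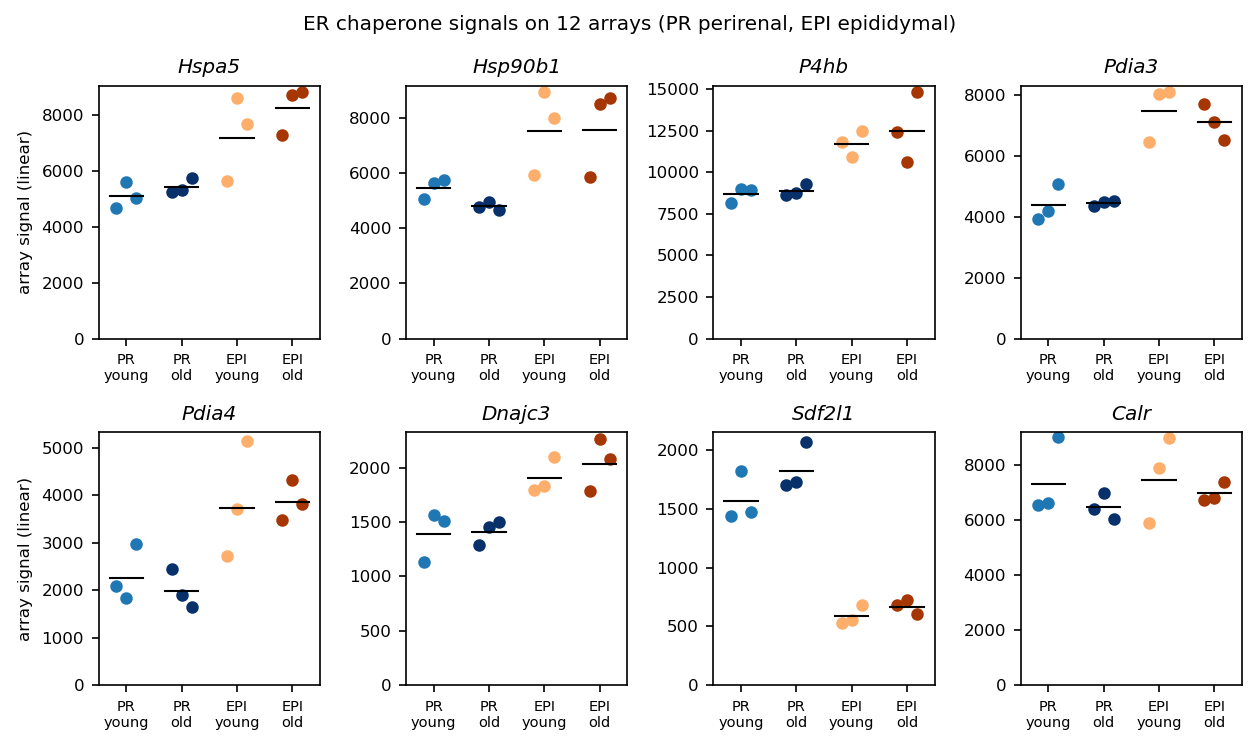
Linear array signals of 8 ER chaperone genes on the 12 arrays, by depot and age. Points are single arrays, in the order of replicate numbers 1 to 3 within a group, and the short lines are geometric means of 3 arrays. Sdf2l1 lies between 1442 and 2073 on perirenal and between 532 and 723 on epididymal arrays.

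Of the 6 ER J proteins, 2 were lower in perirenal cells, against 21.4% of all tested probe sets. Dnajc3 (p58IPK), a J protein that also restrains the eIF2alpha kinases, read 1137 to 1563 (median 1475) in perirenal and 1783 to 2269 (median 1961) in epididymal cells. The ranges did not meet (-0.49 ± 0.11, 1.41-fold, adjusted p = 0.00192). Dnajb12, an ER membrane J protein of protein degradation, read 84.7 to 130 (median 96.1) and 131 to 197 (median 164), with a gap that was small against the spread (-0.68 ± 0.15, 1.60-fold, adjusted p = 0.00219). Dnajb9, which restrains the stress sensor Ire1, read 300 to 382 and 268 to 457 and differed by -0.07 (interval -0.37 to 0.23). Dnajb11, a BiP partner, differed by -0.24 (interval -0.55 to 0.06, adjusted p = 0.166), and Dnajc1 and Dnajc10 did not pass either.

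Neither lectin chaperone passed in its brightest probe set with the deposited scaling. Calr (calreticulin) read 6054 to 9036 in perirenal and 5884 to 8986 in epididymal cells, a difference of -0.07 (interval -0.31 to 0.17). Canx (calnexin) read 2142 to 2837 and 1762 to 2512, a difference of 0.17 (interval -0.04 to 0.39), which after quantile normalization was 0.25 (adjusted p = 0.0476). Further probe sets of Canx passed in opposite directions, at -0.45 (adjusted p = 0.00362) and 3.32 (adjusted p = 3.09e-06). Among the regulators, Xbp1, whose unspliced and spliced forms are not told apart by this signal, differed by 0.04 (interval -0.22 to 0.31). Atf4, the factor of the amino acid and eIF2alpha branch, read 4575 to 7459 and 4345 to 8756 and differed by -0.21 (interval -0.59 to 0.17). Herpud1, an ER degradation component, differed by -0.28 (interval -0.89 to 0.34). Over all 21 ER genes, 9 were lower, 1 was higher and 11 did not pass, with a median of -0.24 against 0.08 over all probe sets. Of all tested probe sets 21.4% passed as lower and 30.2% as higher, and the difference from these shares was not tested. The brightest probe sets were read against the promoters printed above. Of the 6 genes with ERSE, 3 were lower in perirenal cells (Hspa5, Hsp90b1 and Dnajc3) and 3 did not pass (Calr, Canx and Xbp1). None of the 3 with ERSE-II passed in its brightest probe set, while the second probe set of Hyou1 was higher (2.22, adjusted p = 3.11e-06). Neither motif was found for the other ER genes that passed, which were the tested disulfide isomerases, Dnajb12 and Sdf2l1.

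In the cytosolic HSP70, HSP90 and HSP110 group, 3 of 7 were lower in perirenal cells and none was higher, with a median of -0.49. Of all tested probe sets 21.4% were lower and 30.2% higher. Hsp90ab1, the constitutive cytosolic HSP90, read 6030, 6900.0 and 7557 on the young and 5667, 6743 and 7224 on the old perirenal arrays. It read 8920, 8628 and 8739 (young) and 8506, 9862 and 11733 (old) on the epididymal arrays. The depots did not overlap (-0.49 ± 0.10, 1.40-fold lower, adjusted p = 0.000949), but after quantile normalization the difference was -0.21 (adjusted p = 0.053). Hspa12a, a distant HSP70 relative, read 48.5 to 153 (median 112) and 179 to 258 (median 201), without overlap (-1.05 ± 0.24, 2.07-fold, adjusted p = 0.00273). The stress-inducible Hspa1a read 438 to 1067 and 791 to 1459 with wide overlap (-0.53 ± 0.21, adjusted p = 0.045), and it failed to pass in 5 of the 6 fits that leave out 1 rat. Hspa4 (0.16, interval -0.18 to 0.49) and Hsph1 (0.20, interval -0.18 to 0.57), both exchange factors of the HSP110 family, did not pass. The exchange factor Hspbp1 (0.27) and Hspa2 (-0.60 ± 0.37) did not pass.

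The small heat shock proteins, which hold unfolded proteins without using ATP, went in both directions. Hspb1 (Hsp25/Hsp27) read 2944, 2670.0 and 1882 on the young and 2765, 2482 and 2350 on the old perirenal arrays. On the epididymal arrays it read 5228, 3967 and 3528 (young) and 5428, 6542 and 4909 (old). All epididymal arrays lay above all perirenal ones (-0.96 ± 0.13, 1.94-fold lower, adjusted p = 6.53e-05). Hspb7, known mainly from heart and muscle, read 1467 to 2570 (median 2477) in perirenal and 213 to 1484 (median 804) in epididymal cells. Its difference was the largest of the 61 genes in size but with a wide error (1.75 ± 0.41, 3.36-fold higher, adjusted p = 0.00344), and the old perirenal array 1 lay just below the young epididymal array 1. Hspb8, the partner of the co-chaperone Bag3 in selective autophagy, read 596 to 1570 and 573 to 899 (0.64 ± 0.21, adjusted p = 0.0199), and it failed to pass in 3 of the 6 fits that leave out 1 rat. Bag3 itself differed by -0.10 (interval -0.33 to 0.13), Hspb6 by -0.12 (interval -0.48 to 0.24), and Hsf1, the heat shock transcription factor, by 0.26 (interval 0.03 to 0.48, adjusted p = 0.052). With the rat as a random block the adjusted p of Hsf1 was 0.0394.

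**Figure D3:**
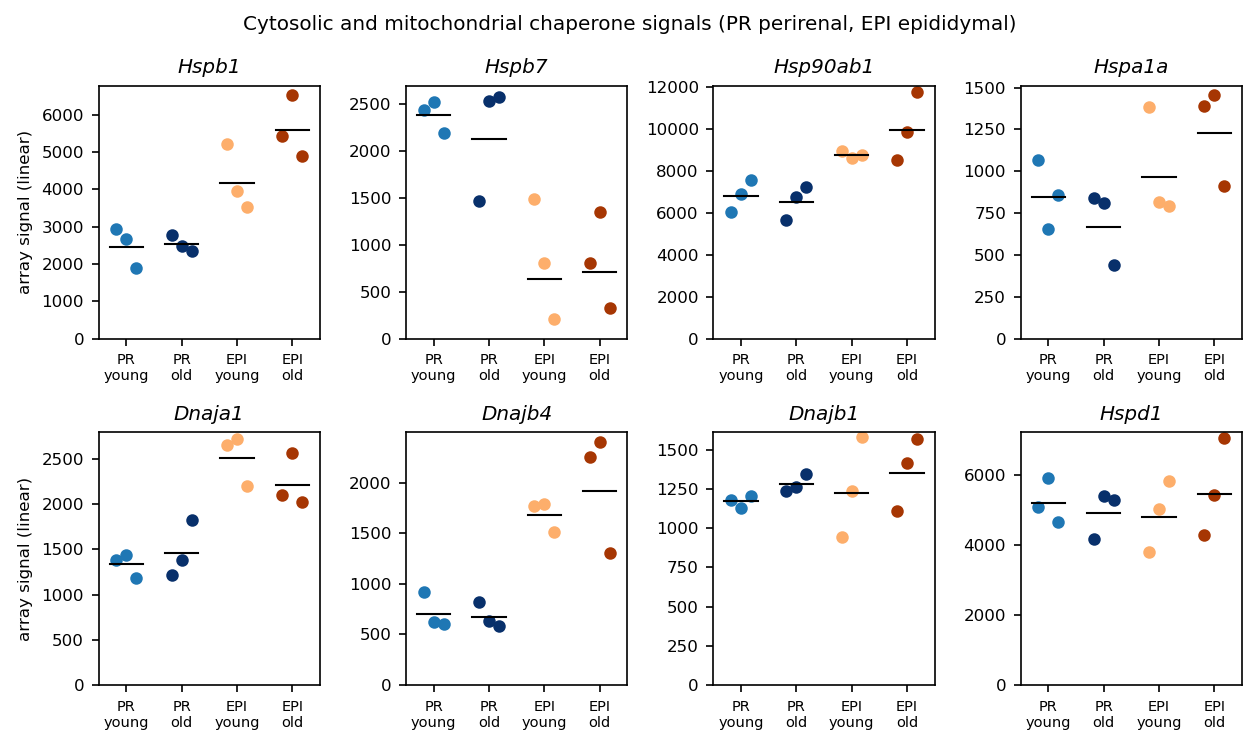
Linear array signals of 8 cytosolic and mitochondrial chaperone genes on the 12 arrays, by depot and age. Points are single arrays and the short lines are geometric means of 3 arrays. Hspb1 lies between 1882 and 2944 on perirenal and between 3528 and 6542 on epididymal arrays, while the groups of Hspd1 and Dnajb1 overlap.

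Of the 20 other J proteins, 5 were higher and 3 lower in perirenal cells, against 30.2% and 21.4% of all tested probe sets. Dnajb4 (Hlj1), a cytosolic partner of HSP70, read 580 to 921 (median 628) in perirenal and 1308 to 2405 (median 1778) in epididymal cells. It was 2.62-fold lower without overlap (-1.39 ± 0.17, adjusted p = 2.23e-05). Dnaja1 (Hdj2) read 1189 to 1830 (median 1386) and 2023 to 2718 (median 2386), also without overlap (-0.76 ± 0.12, 1.69-fold, adjusted p = 0.000166). The third, Dnajb5, differed by -0.69 ± 0.18. Dnajb1 (Hsp40), the stress-inducible J protein, read 1128 to 1347 and 942 to 1578 and differed by -0.07 (interval -0.35 to 0.20). The second probe set of Dnajb1 was higher in perirenal cells (1.34, adjusted p = 1.17e-05). Among the higher ones, Dnajc12 read 234 to 298 (median 275) in perirenal and 81.1 to 185 (median 147) in epididymal cells, 1.96-fold higher without overlap (0.97 ± 0.16, adjusted p = 0.000279). Dnajc13 (Rme-8, of endosomal traffic; 0.45 ± 0.10, adjusted p = 0.00184) and Dnajc27 (0.58 ± 0.11, adjusted p = 0.000618) were also higher without overlap, and Dnajc14 (0.75 ± 0.17) and Dnaja4 (0.39 ± 0.11) were higher with overlap. Hspbap1 (-0.86 ± 0.39), a protein that binds HSPB1, did not pass.

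Of the 6 mitochondrial chaperones and J proteins, 1 passed in its brightest probe set, where 51.7% of all tested probe sets passed. Hspd1 (Hsp60), which with Hspe1 (Hsp10) forms the folding chamber of the matrix, read 4181 to 5916 and 3801 to 7056 and differed by -0.02 (interval -0.32 to 0.27). Hspe1 differed by -0.20 (interval -0.44 to 0.05) and Hspa9 (mortalin), the matrix HSP70, by -0.05 (interval -0.45 to 0.36). Further probe sets of Hspa9 were higher in perirenal cells (1.24, adjusted p = 0.00282, and 1.98, adjusted p = 5.93e-05). The 1 gene that passed in its brightest probe set was Dnajc15, a J protein of the import motor. It read 1260.0 to 2061 (median 1456) and 761 to 1183 (median 973), without overlap (0.69 ± 0.13, 1.62-fold higher, adjusted p = 0.000809).

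Of the genes too dim to test, Dnajc21 read 6.3 to 37.6 in perirenal and 46.6 to 145 in epididymal cells. Hspb2 read 36.9, 58.2 and 63.8 on the young epididymal arrays and 4.4 to 16 on the other 9. Both are given as signals with no test. In the other 5 the depots overlapped or signals stayed low: the highest were 20.5 for Hspa12b, 83.6 for Hspa1l, 97.3 for Dnajb13, 34.2 for Pdia2 and 18.9 for Hspb3.

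Where a gene had further probe sets, these often gave another depot difference. Of the 61 genes, 13 had 15 further tested probe sets, and 10 of the 15 gave a difference above that of the brightest one. Of the 15, 8 passed as higher in perirenal cells and 1 as lower. The further probe sets stood 1.08 above the brightest at the median (over all genes, 68.5% of 1344 further probe sets were above, by 0.55 at the median). For Hsp90ab1 the brightest gave -0.49 ± 0.10 and the other 2.5 ± 0.22, both past the threshold in opposite directions. Canx gave 0.17, -0.45 and 3.32, Hyou1 -0.42 and 2.22, and Hspa9 -0.05, 1.24 and 1.98. Dnajb1 gave -0.07 and 1.34, Dnajc5 -0.11 and 0.97, and Hspb8 0.64 and 2.71. All of these further probe sets passed, although the brightest ones of Canx, Hyou1, Hspa9, Dnajb1 and Dnajc5 did not. Pdia3 gave -0.72 and 0.16 and Dnaja1 -0.76 and 0.13, the second of each not past the threshold. Dnajc14 (0.75 and -0.06, adjusted p = 0.702 for the second) and Dnaja4 (0.39 and -0.16, adjusted p = 0.446) were likewise called in the brightest probe set alone. With the mean of all probe sets of a gene, 28 genes passed, 15 higher and 13 lower, so the split of 9 higher and 16 lower depended on the choice of probe set. The positions of the probe sets along the transcripts were not used here, and the part of the actin ratio in this disagreement was not tested.

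**Figure D4:**
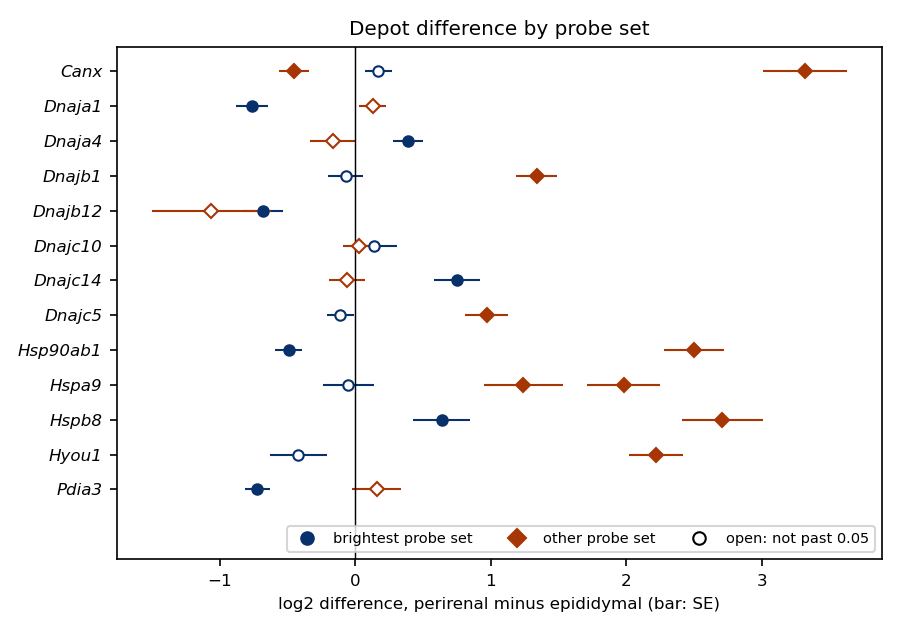
Depot difference, perirenal minus epididymal on the log2 scale, of each tested probe set of the 13 genes that have several. Circles are the brightest probe set, diamonds the others, bars are 1 standard error, and filled symbols passed an adjusted p of 0.05. In Hsp90ab1, Hyou1, Hspb8 and Canx a further probe set lies between 2.22 and 3.32, far right of the brightest one.

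With the log2 actin ratio as a covariate, Sdf2l1 alone remained called (1.75 ± 0.26, adjusted p = 0.00894). Of the 25 genes, 24 kept their sign, the median standard error over the tested genes went from 0.14 to 0.35, and Dnajc14 came to -0.04. Several differences shrank: Pdia4 came from -0.85 to -0.20, Dnajc3 from -0.49 to -0.12, Hsp90b1 from -0.56 to -0.27 and Hspb7 from 1.75 to 0.96. Others stayed about as large, such as Dnajb4 (-1.38), Hspb1 (-0.94), Dnaja1 (-0.78) and Pdia3 (-0.70), and Pdia5 came from -0.39 to -1.04. Since the ratio separated the depots, this fit rests on the spread of the ratio within groups. Without the 2 epididymal arrays with the highest ratios (old 2 at 55.0 and young 3 at 38.2), 23 genes passed.

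The depot difference was then read at each age. In young cells 20 genes passed (32.8%, against 34.9% of all probe sets), 8 higher (20.0% of all probe sets) and 12 lower (14.9%). In old cells 17 passed (27.9%, against 31.8%), 5 higher (19.2%) and 12 lower (12.5%). At both ages 15 genes passed (24.6%), in the same direction, near the 22.6% of all probe sets (2509) that passed at both. Lower at both were Hspa5, Hsp90b1, Dnajc3, Pdia3, Pdia4, P4hb, Hsp90ab1, Dnaja1, Dnajb4 and Hspb1, and higher at both were Sdf2l1, Dnajc12, Dnajc13, Dnajc14 and Dnajc15. These calls rest on the brightest probe sets. The second probe set of Hsp90ab1 was higher at both ages (3.11 in young cells, adjusted p = 2.11e-05, and 1.88 in old cells, adjusted p = 0.000729). Those of Pdia3 (0.30 in young and 0.02 in old cells), Dnaja1 (0.02 and 0.24) and Dnajc14 (-0.21 and 0.09) passed at neither age. After quantile normalization P4hb passed at neither age (-0.10 in young, adjusted p = 0.496, and -0.12 in old cells, adjusted p = 0.465). Hsp90ab1 (-0.34, adjusted p = 0.0513) and Dnajc13 (0.33, adjusted p = 0.0845) then did not pass in old cells, nor Dnajc12 (0.60, adjusted p = 0.0564) in young cells. Sdf2l1 was 1.42 ± 0.15 in young and 1.45 ± 0.15 in old cells, and Hspa5 was -0.50 ± 0.15 and -0.60 ± 0.15. Hspb1 was -0.77 ± 0.19 and -1.14 ± 0.19, a difference between ages of -0.38 ± 0.26 that did not pass (adjusted p = 0.924). With the rat as a fixed block Dnajc13 did not pass in old cells (0.39, adjusted p = 0.073). Among the genes past the threshold at a single age, Dnajb12 (-0.97 ± 0.21) and Hspb7 (1.91 ± 0.59) passed in young cells alone, and Hspa1a (-0.88 ± 0.29) and Hspa12a (-1.32 ± 0.34) in old cells alone. None of these passed the test of the difference between ages. The counts within an age varied when 1 rat was left out, which also leaves fewer arrays in the fit. Then 9 to 20 genes passed in young cells and 8 to 18 in old cells.

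With age, none of the 61 genes passed in perirenal cells, in epididymal cells or over the mean of both depots, 3 old against 3 young rats. None of the 15 further probe sets passed either, and the values below are of the brightest ones unless stated. Over all tested probe sets 0, 8 (0.0720%) and 2 (0.0180%) passed. At an unadjusted p under 0.05 there was 1 gene in perirenal cells (1.64%, against 4.38% of all probe sets), 1 in epididymal cells (1.64%, against 8.35%) and 0 over both depots (against 5.83%). The median difference, old minus young, was -0.00, 0.03 and 0.01 over the 61 genes.

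Among the brightest probe sets, the nearest to a difference in perirenal cells was Dnajc17, a nuclear J protein. It read 117, 90.1 and 170 on the young and 85.6, 45.6 and 96.8 on the old arrays. The groups overlapped, with a difference of -0.75 ± 0.32 (adjusted p = 0.999). Dnajc1 followed at -0.29 ± 0.14 (adjusted p = 0.999). In epididymal cells the nearest was Hspb1, at 5228, 3967 and 3528 on the young and 5428, 6542 and 4909 on the old arrays. Its groups overlapped (0.42 ± 0.19, adjusted p = 0.573), and Dnaja2 followed at 0.23 ± 0.11 (adjusted p = 0.597). The second probe set of Hsp90ab1 gave a larger age difference in epididymal cells, 1.10 ± 0.30, which did not pass (adjusted p = 0.31). Over both depots Dnajc24, of diphthamide synthesis, was 0.45 ± 0.22 and Dnajc15 -0.27 ± 0.14 (adjusted p = 0.844 for both). The old and young groups did not overlap for 8 genes in perirenal cells (13.1%, against 13.6% of all probe sets), 2 in epididymal cells (3.28%, against 10.6%) and 4 over both depots (6.56%, against 11.7%).

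The intervals set bounds on the age differences of the brightest probe sets. For all 21 ER genes in perirenal cells, and for 19 in epididymal cells, the 95% interval of the age difference lay within a 2-fold change in either direction, and over both depots it did for 59 of the 61 genes. Of all 11106 tested probe sets, the interval lay within this bound for 8932 in perirenal cells, 8610 in epididymal cells and 10012 over both depots. Hspa5 differed with age by 0.09 (interval -0.22 to 0.41) in perirenal and 0.20 (interval -0.12 to 0.51) in epididymal cells. The interaction, the age difference in perirenal minus that in epididymal cells, passed for none of the 61 genes and none of the 11106 probe sets (0%). At an unadjusted p under 0.05 there was 1 gene, Dnajc17 (-1.0 ± 0.46, adjusted p = 0.896), against 5.51% of all probe sets, and Dnajb12 was next (0.58 ± 0.30, adjusted p = 0.906). For the second probe set of Hsp90ab1 the interaction was -1.23 ± 0.43 and did not pass (adjusted p = 0.854).

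Within groups, some genes of the unfolded protein response stood out on the same replicate number, a pattern chosen after the values were seen and given without a test. The number stands for different rats at the 2 ages, and the sources used here give no culture batch or date. Atf4 read 6233, 4575 and 4851 on arrays 1, 2 and 3 of young perirenal cells, 7459, 4714 and 4763 of old perirenal, 8065, 4345 and 5498 of young epididymal and 8756, 5130.2 and 6409 of old epididymal cells. Array 1 was the highest in all 4 groups, by 1.32 to 1.65 times the geometric mean of arrays 2 and 3. Array 1 was also the highest in all 4 groups for Herpud1 (1.72 to 2.16 times) and Hspa9 (1.21 to 1.76 times), while the order of arrays 2 and 3 varied.

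The same held for 5 of the 50 tested genes of a list of ER stress and ER degradation genes, among them known targets of Atf4. Other list genes, such as Ppp1r15a and Cebpb, were not highest on array 1 in all 4 groups. Ddit3, which codes for CHOP, was 1.36 to 2.55 times as high on array 1, Trib3 2.31 to 6.44 times, Chac1 2.84 to 6.17 times and Asns, asparagine synthetase, 1.28 to 4.45 times. Atf3 was also highest there, 1.45 to 7.16 times, with 1 signal as low as 3.4. Of all tested probe sets 3.39% were highest on array 1 of all 4 groups, against 3 of the 61 chaperone genes, not far from that share, and 5 of the 50 list genes. These differences in share were not tested. Hspa5 (0.693 to 0.949 times), Dnajc3 (0.739 to 0.913 times) and Pdia6 (0.820 to 0.919 times) were lowest on array 1 in all 4 groups. They were 3 of the 61 chaperone genes, again not far from the share of all probe sets, 2.78%. Spcs1 was the 1 list gene that was lowest on array 1. The actin ratio of array 1 was the lowest of its group in young perirenal (0.948) and old epididymal cells (7.0), the highest in old perirenal (1.06) and in the middle in young epididymal cells (10.3).

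Arrays 2 and 3 showed fewer such genes. On array 2, Hspa13 was highest in all 4 groups (2.73% of all probe sets) and Atf4 and Dnajc27 lowest (1.66%). On array 3, Dnajb1 was highest (2.19%) and Dnajb4 and Hspb1 lowest (2.67%). Of the list genes, Asns, Creb3l1 and Selenos were lowest on array 2, and Creb3l1 and Sec61g highest on array 3. With the replicate number as a block, chosen after the values were seen, 27 genes passed between depots and none with age. Atf4 was then among the 27, with the same difference of -0.21 and an adjusted p of 0.0365.

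**Figure D5:**
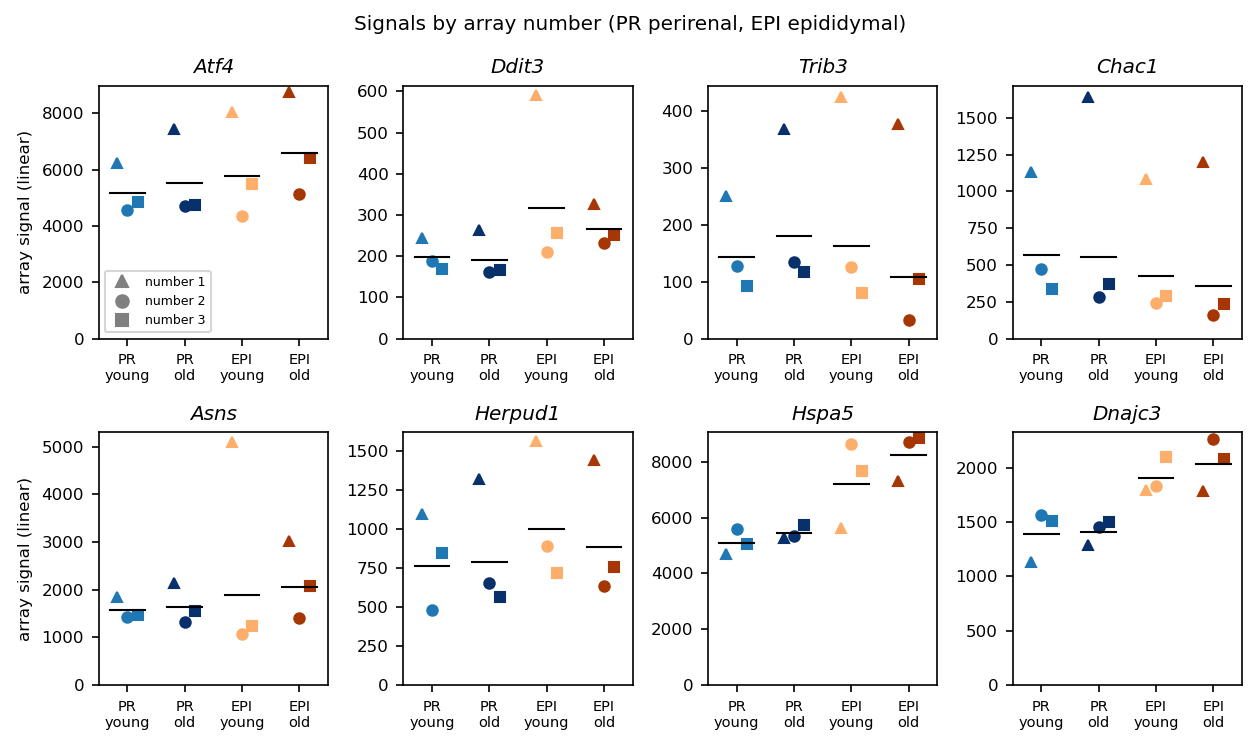
Linear array signals of 8 genes of the unfolded protein response by group, with the replicate number as the symbol (triangle 1, circle 2, square 3) and short lines at the geometric mean of 3 arrays. Array 1 is the highest in all 4 groups for Atf4, Ddit3, Trib3, Chac1, Asns and Herpud1 and the lowest for Hspa5 and Dnajc3.

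Other genes of the same pathways, from lists outside the 68, also went both ways between depots. Of 50 tested ER stress and ER degradation genes, 8 were higher and 14 lower in perirenal cells, with a median of -0.13. The shares over all tested probe sets were 30.2% higher and 21.4% lower, with 51.7% passing in either direction. Spcs2, a signal peptidase subunit (0.97 ± 0.10), Sel1l, of the ER degradation ligase (0.86 ± 0.11), and Edem2, which trims mannose from misfolded glycoproteins (0.79 ± 0.11), were higher. Nucb2 (-1.47 ± 0.12), the lectin Erlec1 (-0.58 ± 0.09) and Edem1 (-0.65 ± 0.11), a relative of Edem2, were lower. Ddit3 differed by -0.58 ± 0.24 and did not pass (adjusted p = 0.0547).

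Of 31 tested ER folding genes outside the 68, 4 were higher and 14 lower, against 30.2% and 21.4% of all tested probe sets. Their median was -0.20. The cargo receptor Lman1 (1.35 ± 0.10), the folding sensor Uggt1 (1.29 ± 0.13) and the prolyl isomerase Fkbp2 (0.47 ± 0.10) were higher. Prkcsh, a glucosidase II subunit (-0.81 ± 0.10), the collagen lysyl hydroxylase Plod2 (-0.92 ± 0.12) and Erp44, which retains client proteins in the early secretory pathway (-0.79 ± 0.13), were lower. Of 37 tested cytosolic co-chaperones and chaperonins, 3 were higher (Cdc37 0.50 ± 0.10, Hsf2 1.14 ± 0.22 and Tomm34 0.71 ± 0.17) and 9 lower, with a median of -0.09. These counts stand against 30.2% higher and 21.4% lower of all tested probe sets. Among the 9 were the chaperonin subunit Cct5 (-0.52 ± 0.07), the prefoldin subunit Pfdn2 (-0.87 ± 0.13) and Cryab, the alpha-B crystallin small heat shock protein (-1.15 ± 0.21). No gene of the 3 lists passed in any age comparison.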

How the data were processed

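The authors deposited linear intensity values, 1 for every array and probe set, made with MAS5 per the submitters' processing notes, with no version or parameters given in the sources used here. The mean of each array without its lowest and highest 2% was 500.1 to 500.2, so the deposited scaling was kept. Signals were taken to log2 without an offset, after 2 signals of 0 had been set to 0.1, the lowest positive signal. Of 15923 probe sets, 57 controls and the lowest 30% of mean log2 signal (geometric mean under 56.3) were left out, and 11106 were tested. Gene names came from the platform annotation, in which 12783 probe sets have 1 symbol, 312 have several and 2771 have none. All 68 genes were matched to RefSeq by gene ID.

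All comparisons used limma 3.58.1 (R 4.3.3): 1 term per group over 12 arrays, eBayes with an intensity trend, Benjamini-Hochberg adjustment over all tested probe sets and a threshold of 0.05. Age over both depots was tested on the mean of the 2 arrays of each rat. The script was tested on simulated data. Errors are limma standard errors, and the number of arrays limits the precision. The labels tie both arrays of a rat to 1 animal. The correlation of their deviations from the group means was 0.0393 to 0.201, and for 6 of 6 rats the own array was the best match within the age. Over both ages it was for 3 of 6, since each old rat's perirenal array correlated more with the epididymal array of the same-numbered young rat (0.126 to 0.235).

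Genes named were a fixed set of well-known chaperones, the 6 smallest p per direction of each comparison (the 2 smallest where none passed) and the 3 smallest per direction of the other lists, with further genes added after their values were seen. The 68 genes, the lists and the tests were chosen with earlier results of these data known. Alternatives were quantile normalization, no filter, an offset of 16, no trend, the rat as a block (fixed or random), the actin ratio as a covariate, the mean over probe sets and leaving out each rat. The replicate number as a block and leaving out the 2 arrays with the highest actin ratio were added after seeing the data.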

Additional observations from a re-analysis of the deposited data

How the results depend on the processing

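Counts are genes of the 61 past the threshold. Between depots over both ages, 25 passed as reported, 28 after quantile normalization, 28 without the filter, 25 with an offset of 16, 24 without the trend and 28 with the mean of all probe sets. Under quantile normalization the median difference over the whole array was -0.03 in place of 0.08. A fixed block for the rat gave 28, a random block 27, and a block for the replicate number 27. In the 2 ages the fixed block gave 22 (young) and 17 (old), and in the age comparisons no block gave a call. Among the named genes, a block for the rat changed the call of Hyou1, Hsf1 and Dnajc13 and of no other. The fixed block could not be fitted for age within a depot or over both depots. The actin covariate left 1 gene in each of the 3 depot comparisons, and Dnajc14 then came to -0.04 over both ages and -0.07 in old cells. Pdia6 came to 0.05 after quantile normalization, under which P4hb, Hsp90ab1 and Pdia5 also lost their call over both ages. Without the 2 arrays with the highest actin ratio, 23 passed over both ages, 16 in old and 13 in young cells. Leaving out each rat gave 22 to 25 over both ages, 9 to 20 in young cells (12, 9 and 9 without young rat 1, 2 and 3) and 8 to 18 in old cells (10, 8 and 12 without old rat 1, 2 and 3), and 21 of the 25 genes passed each time. The exceptions were Pdia5, Pdia6, Hspa1a and Hspb8. Age and the interaction gave 0 genes under every alternative run. The cause of these changes was not tested.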
